A study of Mus musculus with 4 samples.

Results

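The genes of CTCF and of the cohesin machinery form a set of 10 genes in this series: Ctcf itself, the cohesin core genes Smc1a, Smc3, Rad21, Stag1 and Stag2, the loader genes Nipbl and Mau2, the release factor gene Wapl and its partner gene Pds5a. They were chosen by name as the architectural factors that read CTCF sites and form loops there, and the rule used no measured value, though it was written with earlier results of these data known. The count table held all 10 among its 24594 genes, and all 10 passed the filter on low counts that left 13840 genes for testing. Poly(A) RNA-seq was made from mouse ESCs (embryonic stem cells) of 129S6/SvEvTac background, with no treatment in any library. A pair of libraries came from wild-type (WT) cells and another pair from Snf2l knockout cells, so n = 2 for each genotype throughout. Snf2l is the gene Smarca1, and its product SNF2L is a chromatin remodeling ATPase that belongs to the ISWI family. Mutant lines were made by Cas9 editing, grown in medium with serum and LIF, and represented by a single clone per genotype, so knockout and clone cannot be told apart. The study's methods call replicates independent, without saying whether these libraries came from separate cultures, and every p-value measures the spread between these libraries alone.

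CTCF is a zinc finger protein that binds a long DNA motif and acts as an insulator. Cohesin is a ring of SMC1, SMC3 and the kleisin RAD21, to which a STAG protein is bound. The loader NIPBL with MAU2 drives the ring along chromatin, extruding a loop, until it meets bound CTCF, and WAPL with PDS5 takes the ring off again. In ESCs these proteins shape topologically associating domains, and cohesin also holds sister chromatids together until anaphase.

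The 4 libraries held between 13771642 and 15608803 counts. Counts of Smarca1, the targeted gene, were 620 and 626 in WT against 37 and 31 in the libraries labelled as knockout. Each of the 10 ESC marker genes examined was counted in every library, with a summed level of 4864 to 5213 CPM (read counts scaled by library size) in WT and 5207 to 5416 CPM in the knockout. The tested genes of chromosome 8 were shifted as a group in the knockout clone, with a median log2 fold change of -0.51 over 754 genes (quartiles -0.63 and -0.35), or 70.4% of the WT level. Ctcf and Mau2 lie on this chromosome, and the other 8 members do not.

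Levels within a genotype were compared per kb of the deposited gene length. Every member was well covered, with 935 to 7436 counts in a library. Rad21, the kleisin that closes the ring, was the highest in WT ESCs at 109 ± 5.03 CPM per kb (SD), above 97.2% of tested genes. Ctcf followed at 71.4 ± 1.76 CPM per kb, then the coiled-coil ring gene Smc3 at 60.2 ± 3.17. The release factor gene Wapl had 55.0 ± 2.71 CPM per kb and the other ring gene, Smc1a, 46.6 ± 0.993. The remaining 5 genes were lower by a wide step. Pds5a stood at 21.2 ± 2.77 CPM per kb, Stag1 at 17.2 ± 0.332, Nipbl at 16.7 ± 2.69, Stag2 at 16.3 ± 1.07 and Mau2 at 15.2 ± 0.398 CPM per kb. Within this lower group the libraries of Stag1 and Nipbl overlapped, as did those of Nipbl and Stag2, so their order is not resolved. The order of the lower group also depended on the gene length used. GENCODE M21 gives longer exon unions for Pds5a, Stag1 and Mau2, and with those lengths Nipbl and Stag2 came before Pds5a, Stag1 and Mau2 in WT, an alternative chosen after the data had been seen. In the knockout cells Rad21 again had the highest level, 108 ± 5.80 CPM per kb. Ctcf, at 49.6 ± 1.14 CPM per kb there, lay below Smc3 (61.4 ± 0.0124) and Wapl (53.0 ± 3.09).

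**Figure D1:**
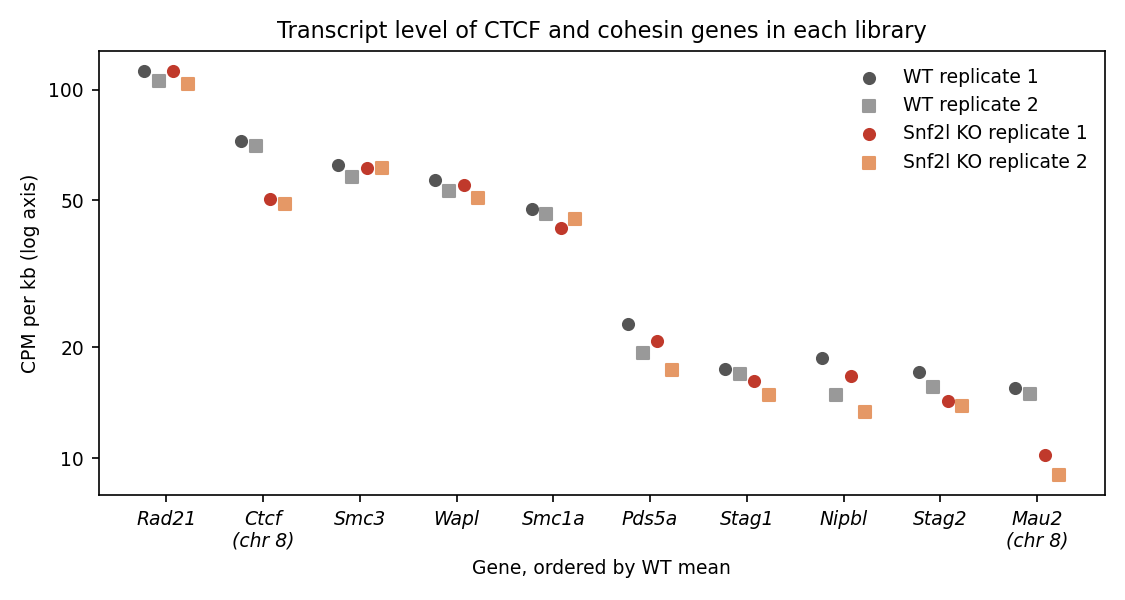
Level of each CTCF and cohesin gene in CPM per kb on a log axis, 1 point per library, ordered by the WT mean. Rad21 lies near 109 CPM per kb in WT and Mau2 near 15.2, and the knockout points separate clearly from the WT points for Ctcf and Mau2.

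How the knockout libraries differed from WT was asked of each member with the quasi-likelihood test of edgeR and Benjamini-Hochberg adjustment over all tested genes. Ctcf and Mau2, both on chromosome 8, were lower in the knockout. They are 2 of 10 members at an adjusted p-value under 0.05, where 9.21% of all tested genes passed in either direction and 5.21% were lower. Among chromosome 8 genes 60.1% were called lower, so a call for a gene of this chromosome is the common outcome. For 5 of 10 members, 3 of them off chromosome 8, each knockout library was below each WT library. Over all tested genes, chromosome 8 included, this share was 25.3%. Each knockout library was above each WT library for 0 members, and the share of all genes in that direction was not computed. At the study's own threshold, an adjusted p-value under 0.01 with over 2-fold change, edgeR and DESeq2 each called 0 members, against 0.990% of tested genes in edgeR. With an unadjusted p-value in place of the adjusted one, 0 members were past 2-fold as well. In bulk RNA, fewer cells that express a gene and less RNA per cell cannot be told apart.

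Ctcf (Entrez gene 13018, GRCm38 chromosome 8, 105636474 to 105682922) encodes the insulator protein itself. Its counts were 4807 and 5227 in WT libraries and 3845 and 3646 in knockout libraries, or 72.7, 70.2, 50.4 and 48.8 CPM per kb in the same order. The groups did not overlap, and the libraries of a genotype lay close together. The log2 fold change was -0.53 (SE 0.084, 95% interval -0.71 to -0.35, edgeR adjusted p = 1.03e-03), which left 69.5% of the WT level. This was almost the median of its chromosome, and 45.9% of tested chromosome 8 genes had a lower log2 fold change. Fitted with the chromosome 8 median as an offset, the remaining log2 difference was -0.02 (SE 0.084, 95% interval -0.20 to 0.16, edgeR adjusted p = 0.931). Leaving out WT replicate 1 or knockout replicate 2 turned the sign of this remainder, to 0.0092 and 0.0035. Exons of the genes Agrp and Gm5914 on the opposite strand overlap 370 bp of Ctcf, and neither gene had more than 9 counts in a library.

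Mau2 (Entrez gene 74549, chromosome 8, 70014527 to 70042734) encodes the partner of NIPBL in the cohesin loader. It had 1424 and 1545 counts in WT against 1080 and 935 in the knockout, which is 15.5, 14.9, 10.2 and 8.99 CPM per kb. Again the groups did not overlap, with knockout replicate 2 the lowest. The log2 fold change was -0.66 (SE 0.097, 95% interval -0.87 to -0.45, edgeR adjusted p = 5.94e-04), which left 63.1% of the WT level. Mau2 lay below the chromosome 8 median, with 19.6% of chromosome 8 genes lower still. Against that median the log2 difference was -0.16 (SE 0.097, 95% interval -0.37 to 0.050, edgeR adjusted p = 0.416), so a difference of Mau2 from its chromosome was not shown. This log2 difference ranged from -0.26 without knockout replicate 1 to -0.07 without knockout replicate 2. Against the median of chromosome 8 genes within 10 Mb of Mau2 it was -0.21 (SE 0.097, edgeR adjusted p = 0.249). With the chromosome 8 median as the offset, edgeR called 0 of the 2 chromosome 8 members at an adjusted p-value under 0.05. At that threshold 4.77% of chromosome 8 genes and 4.78% of all tested genes were called. At an unadjusted p-value under 0.05 it was 0 of the 2 as well, and the share of all genes there was not computed. DESeq2 with the offset also called 0 members, where it called 350 of the 13840 tested genes.

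**Figure D2:**
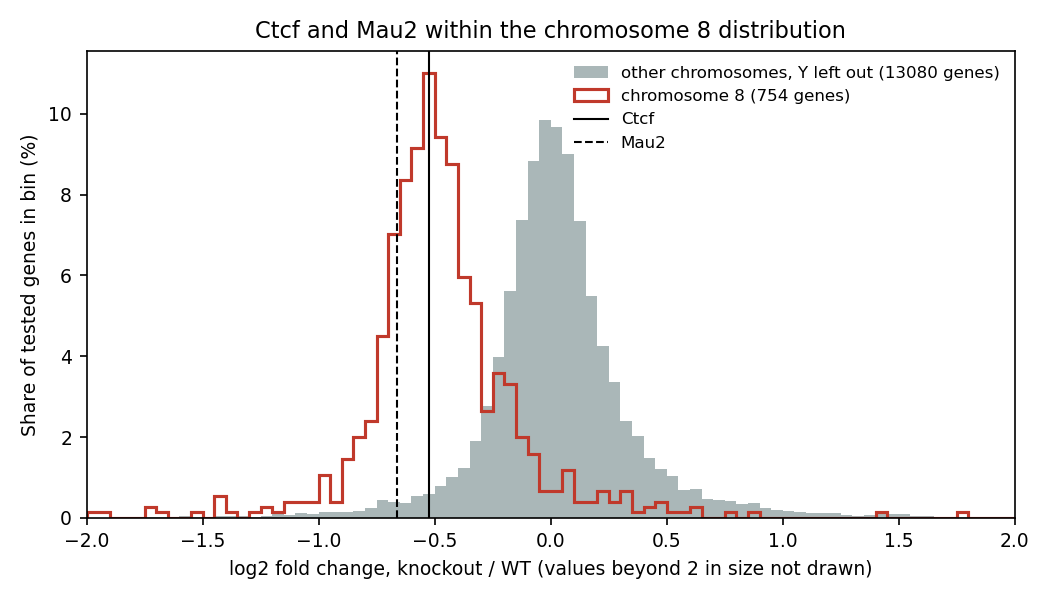
Distribution of log2 fold changes (knockout over WT, x axis) as the share of tested genes per bin (y axis), for chromosome 8 and for the other chromosomes without Y. The lines of Ctcf (-0.53) and Mau2 (-0.66) fall within the bulk of the chromosome 8 distribution, whose median is -0.51.

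Neighbouring genes shared the common sign of the chromosome, where 93.8% of tested genes had a negative log2 fold change and 60.1% were called lower. All 6 tested neighbours of Ctcf, 3 on either side, had a negative log2 fold change, from -0.56 for Carmil2 to -0.31 for Hsd11b2, and 2 of them passed at an edgeR adjusted p-value under 0.05 (Acd, of the telomere shelterin complex, at -0.53 and the proton pump gene Atp6v0d1 at -0.39). The 6 neighbours of Mau2 were also all negative, from -0.80 for Tssk6 to -0.13 for Ndufa13, with 1 passing, the NuRD subunit gene Gatad2a at -0.50. The median of the 6 neighbours was -0.38 for Ctcf and -0.34 for Mau2, smaller in size than the chromosome 8 median of -0.51. Within 10 Mb the median log2 fold change was -0.51 around Ctcf (134 genes) and -0.45 around Mau2 (160 genes). By Euclidean distance of log2 CPM per kb over the 4 libraries, among 11129 genes, the genes most like Ctcf were Sall1, Gtf2e2 and Usp10 (distances 0.165, 0.179 and 0.195), and those most like Mau2 were Mcph1, Aktip and Ogfod1 (0.0799, 0.173 and 0.183). All 6 lie on chromosome 8, and the lower level shared by that chromosome in the knockout enters the distance.

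The promoters of Ctcf and Mau2 are shown because these members had the called differences. Each window runs from 250 bases before to 50 after a RefSeq start on GRCm38.p6, and the capitals mark the GC box (GGGCGG on either strand), the motif of SP and KLF factors. The Ctcf window (chr8:105636288-105636587, plus strand) holds 47 CpG dinucleotides and the upstream window of Mau2 (chr8:70042685-70042984, minus strand) holds 21, where the median window holds 7. The other Mau2 window (chr8:70029464-70029763), not printed, holds 1 CpG and 0 GC boxes. The start of Sugp1 lies within the upstream Mau2 window.
Ctcf: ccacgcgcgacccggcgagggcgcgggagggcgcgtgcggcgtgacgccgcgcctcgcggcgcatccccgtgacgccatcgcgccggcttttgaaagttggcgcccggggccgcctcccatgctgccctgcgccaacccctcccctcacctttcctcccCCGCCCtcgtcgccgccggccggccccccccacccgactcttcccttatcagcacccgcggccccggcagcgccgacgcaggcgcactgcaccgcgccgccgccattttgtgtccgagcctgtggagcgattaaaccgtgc
Mau2: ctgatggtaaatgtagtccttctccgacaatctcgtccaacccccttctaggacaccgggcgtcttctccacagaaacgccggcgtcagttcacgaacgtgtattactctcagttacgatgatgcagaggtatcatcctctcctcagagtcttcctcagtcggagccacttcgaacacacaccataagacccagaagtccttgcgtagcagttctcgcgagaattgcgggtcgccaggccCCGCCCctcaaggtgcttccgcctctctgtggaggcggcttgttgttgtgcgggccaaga
Of the 10 members, 7 had a window, and a GC box was in 7 of their 8 windows, against 35.7% of 32851 windows in all. The letters CCANNAGNNGGC, a core of the CTCF motif, were in 0 of the 8 member windows and in 2.43% of all windows on either strand. A GC box was present in members of chromosome 8 and of other chromosomes. Nipbl, Rad21 and Stag2 had no window to search.

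For the 8 members on other chromosomes no call was made. edgeR called 0 of 8 at an adjusted p-value under 0.05, where 6.22% of tested genes off chromosome 8 passed, and DESeq2 called 0. Stag2 was the only member of the 8 with an unadjusted edgeR p-value under 0.05, where 19.0% of tested genes off chromosome 8 had one. Log2 fold changes lay between -0.22 and 0.029, with 95% intervals reaching from -0.41 to 0.21 at their extremes, and edgeR adjusted p-values lay between 0.173 and 0.961. Their median was -0.13 and 7 of 8 were negative, beside a median of 0.013 and 47.4% negative among tested genes off chromosomes 8 and Y. Rad21, whose value was close to 0, turned positive under upper-quartile and library-size scaling.

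Among the ring genes, Rad21 (chromosome 15) had 112, 105, 112 and 104 CPM per kb in WT replicates 1 and 2 and knockout replicates 1 and 2, overlapping groups. Its log2 fold change was -0.011 (95% interval -0.19 to 0.17). Smc3 (chromosome 19) had 62.5, 58.0, 61.4 and 61.4 CPM per kb, with the knockout libraries between those of WT, and a log2 fold change of 0.029 (95% interval -0.15 to 0.21). Smc1a, its dimer partner on chromosome X, had 47.3, 45.9, 42.2 and 44.6 CPM per kb. Both knockout libraries of Smc1a were below both of WT, by a log2 fold change of only -0.10 that did not pass (SE 0.086, 95% interval -0.29 to 0.078, edgeR adjusted p = 0.529), and of -0.063 without knockout replicate 1.

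STAG1 and STAG2 are alternative subunits, so that a ring carries either of them, and STAG proteins are the surface through which cohesin meets CTCF. Stag2 (chromosome X) had 17.1 and 15.6 CPM per kb in WT against 14.3 and 13.8 in the knockout. The groups were apart, and Stag2 had the smallest adjusted p-value off chromosome 8 (log2 fold change -0.22, SE 0.092, 95% interval -0.41 to -0.02, edgeR adjusted p = 0.173). Stag1 (chromosome 9) had 17.4, 17.0, 16.2 and 14.8 CPM per kb in the same order of libraries, also without overlap, and a log2 fold change of -0.15 (95% interval -0.34 to 0.044, edgeR adjusted p = 0.371), which was -0.083 without knockout replicate 2. Their transcripts share no stretch of 50 bases.

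Nipbl, Pds5a and Wapl, of the loading and release steps, differed more between replicates than between genotypes. Nipbl (chromosome 15), which encodes the large subunit of the loader, had 18.6 and 14.8 CPM per kb in WT against 16.7 and 13.4 in the knockout. Pds5a (chromosome 5) showed the same layout, 23.2 and 19.2 in WT against 20.7 and 17.3 in the knockout. In both genes replicate 2 was below replicate 1 in either genotype, and the genotypes overlapped. Wapl (chromosome 14) had 56.9, 53.1, 55.2 and 50.9 CPM per kb, overlapping as well, with a log2 fold change of -0.05 (95% interval -0.24 to 0.13). The log2 fold changes of Nipbl and Pds5a were both -0.15 (95% intervals -0.41 to 0.11 and -0.38 to 0.076, edgeR adjusted p = 0.508 and 0.449). Without knockout replicate 1 they became -0.32 and -0.29 and passed (edgeR adjusted p = 0.0372 and 0.0499). Without WT replicate 1 they were 0.019 and -0.014, and without knockout replicate 2 they were -0.0023 and -0.030. Without WT replicate 2 they were -0.31 and -0.28 and did not pass.

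Gene length moved with these replicate differences. For genes of 8 kb or longer off chromosomes 8 and Y, the median log2 difference of replicate 2 from replicate 1 was -0.14 in WT and -0.19 in the knockout, and for genes under 2 kb it was 0.12 and 0.16. All 10 members were lower in WT replicate 2 than in WT replicate 1, and 8 of 10 in knockout replicate 2 than in knockout replicate 1, with the widest gaps for Nipbl (-0.33 and -0.32) and Pds5a (-0.27 and -0.26). Between genotypes, the median log2 fold change was 0.064 for genes under 2 kb, -0.0023 for genes of 4 to 8 kb and -0.049 for genes of 8 kb or longer. The members are between 4232 and 14852 bp long, and the part of length in their negative values was not tested.

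**Figure D3:**
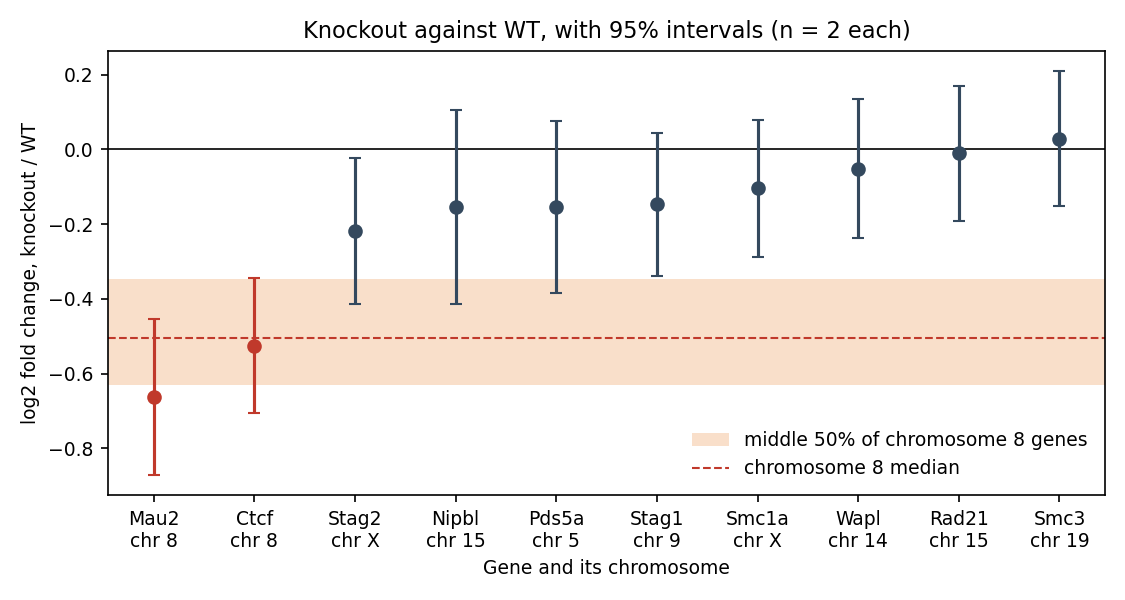
Log2 fold change of each member with its 95% interval from edgeR (n = 2 for each genotype), in rising order, with the chromosome 8 median as a dashed line and the middle of the chromosome 8 genes as a band. Ctcf (-0.53) lies just below the dashed line at -0.51 and Mau2 (-0.66) below the band, and the other members lie between -0.22 and 0.029.

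Whether subunits kept their balance was examined by the ratio of CPM per kb of a pair of genes within each library, which does not depend on library scaling. With 2 libraries against 2, the exact permutation test cannot give a p-value below 0.333 for a ratio, so the values are given as a description. The 8 ratios follow. Ctcf relative to Rad21 was 0.647 and 0.667 in WT against 0.450 and 0.470 in the knockout, a log2 difference of -0.51 where the pooled SD of libraries was 0.038. Nipbl relative to Mau2 was 1.21 and 0.996 in WT against 1.64 and 1.49 in the knockout, a log2 difference of 0.51 with a pooled SD of 0.16. Each of these pairs sets a chromosome 8 gene against one from another chromosome.

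The other ratios concern genes off chromosome 8 alone. The sum of Stag1 and Stag2 relative to Rad21 was 0.308 and 0.309 in WT against 0.272 and 0.276 in the knockout, a log2 difference of -0.17 with a pooled SD of 0.011. This was a small shift, wider than the gap between replicates, but that gap rests on 2 libraries per genotype. In edgeR the SEs of the log2 fold changes of Stag1, Stag2 and Rad21 were larger, at 0.090, 0.092 and 0.085. These genes were not called, but those tests judge each gene and not a ratio within a library. Since the exact permutation test of the ratio cannot give a p-value below 0.333, a change in this balance was not shown. Smc1a relative to Smc3 was 0.758 and 0.792 in WT against 0.687 and 0.726 in the knockout (log2 difference -0.13, pooled SD 0.051). Stag2 relative to Stag1 was close to parity and overlapped between genotypes, at 0.981, 0.919, 0.878 and 0.933. With GENCODE lengths, however, its WT mean was 1.09 in place of 0.950, so which paralogue was more abundant is not resolved. Rad21 relative to Smc3 (1.80, 1.81, 1.82 and 1.69), Nipbl relative to Wapl (0.328, 0.280, 0.302 and 0.263) and Pds5a relative to its paralogue Pds5b (1.59, 1.61, 1.68 and 1.53) overlapped between genotypes.

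**Figure D4:**
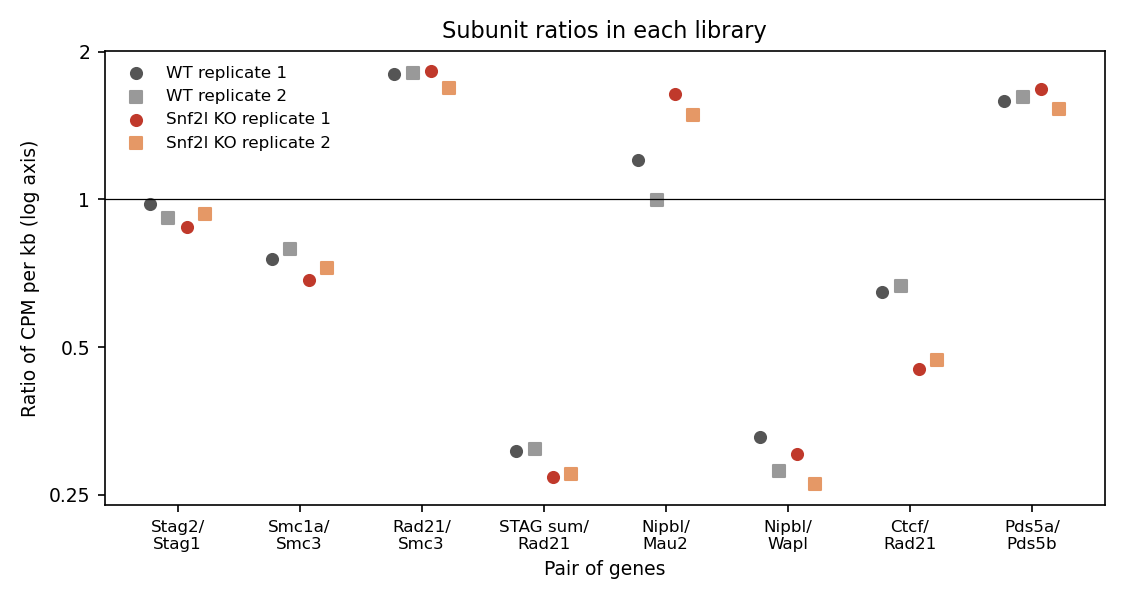
Ratio of CPM per kb for each pair of genes on a log axis, 1 point per library. Ctcf/Rad21 is lower in both knockout libraries (0.450 and 0.470) than in WT, Nipbl/Mau2 is higher (1.64 and 1.49), and Stag2/Stag1 stays near 1 in all of them.

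The paralogues examined were each present at a lower level than the members they are related to. The meiotic STAG gene Stag3 had 9.42, 9.01, 10.1 and 8.63 CPM per kb in the 4 libraries, and Smc1b 4.36, 4.27, 4.61 and 4.33. The meiotic kleisin gene Rec8 had 4.83 and 5.36 CPM per kb in WT against 4.19 and 4.10 in the knockout, without overlap (log2 fold change -0.30, edgeR adjusted p = 0.203). Ctcfl, the testis paralogue of Ctcf also called BORIS, had 24, 30, 33 and 30 counts, or 0.548 to 0.654 CPM per kb. Pds5b had 14.6, 11.9, 12.4 and 11.3 CPM per kb, and its log2 fold change of -0.16 (edgeR adjusted p = 0.420) was close to that of Pds5a. With GENCODE lengths the WT mean of Pds5a relative to Pds5b was 1.23 in place of 1.60.

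Around the members, 45 related genes in 4 lists were examined: cohesin regulators, germline cohesin with Ctcfl, condensin with the SMC5/6 complex, and CTCF partners or factors found at the same sites. Of these, 43 were tested and 0 lie on chromosome 8. edgeR and DESeq2 each called 0 at an adjusted p-value under 0.05, where edgeR called 6.22% of tested genes off chromosome 8. Over all chromosomes DESeq2 called 799 of the 13840 genes. Without adjustment, edgeR gave 7 of them a p-value under 0.05, 3 higher and 4 lower, where 19.0% of tested genes off chromosome 8 had one. Named after their values had been seen, the higher were the SMC3 deacetylase gene Hdac8 (0.38), the securin gene Pttg1 (0.36) and the condensin II gene Ncaph2 (0.22), and the lower were Rec8 (-0.30), Smchd1 (-0.26), Ncapg2 (-0.22) and Patz1 (-0.19), in log2 fold change. The smallest edgeR adjusted p-value was 0.114. List medians were -0.043 for the cohesin regulators, 0.037 for the germline list, -0.014 for condensin and SMC5/6 and -0.045 for the CTCF partners, and 24 of 43 genes were negative.

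**Figure D5:**
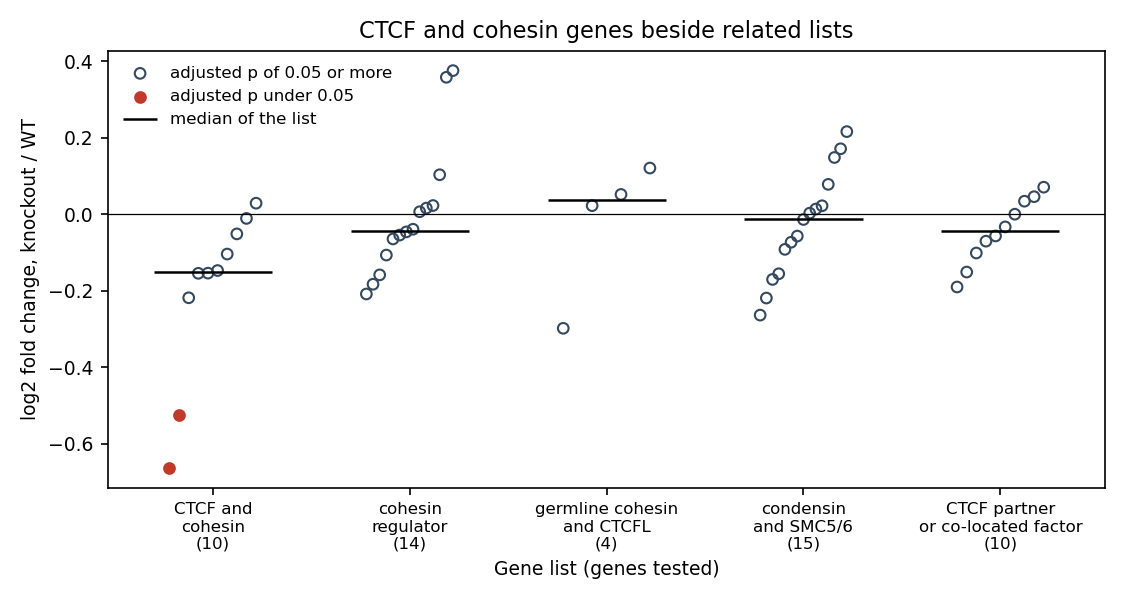
Log2 fold change (knockout over WT) of the 10 members and of the tested genes of 4 related lists, 1 point per gene, with the list median as a line and filled points for an edgeR adjusted p-value under 0.05. The filled points are Ctcf and Mau2, and the medians of the related lists lie between -0.045 and 0.037.

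Markers of other cells also differed between genotypes. The summed level of 8 fibroblast markers was 12.7 to 15.4 CPM in WT and 28.5 CPM in both knockout libraries, with 2 of the 6 tested genes higher (Col1a1 and Col3a1) and Lum at 0 throughout. The summed level of 9 neural and endoderm markers was 181 to 201 CPM in WT and 137 to 145 CPM in the knockout. Of the 7 tested genes in this sum, 3 were higher and 3 lower, and Afp was at 0. Most of this sum was Tubb3, itself on chromosome 8, at 136 and 158 CPM in WT and 92.7 and 99.8 CPM in the knockout. Of the ESC markers, Klf4 was higher and Zfp42, on chromosome 8, was lower. These marker calls used an edgeR adjusted p-value under 0.05, which 9.21% of all tested genes passed in either direction. Whether such other cells were present, and any part of them in the members' values, was not tested.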

How the data were processed

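Poly(A) RNA-seq libraries of WT and Snf2l knockout ESCs (2 each, grouped by the labelled genotype) were analysed. The authors deposited 1 table of read counts, whole numbers that are not normalized, with a gene length in bp. Reads had been aligned to mm10 with QuasR and HISAT2 and counted per Entrez gene over UCSC Known Genes. Whether counting used strand is not given in the sources used here, and the labels and methods name different TruSeq kits. Positions came from RefSeq on GRCm38 (99.9% of genes matched).

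Counts were tested in R 4.3.3 with edgeR 4.0.16 (filterByExpr, minimum count 10, TMM, legacy quasi-likelihood fit, genotype as the only term, two-sided, Benjamini-Hochberg adjustment over 13840 genes). Intervals are 95% intervals from the same fit. Library totals of 13771642 to 15608803 counts gave a common biological coefficient of variation of 7.45%. For the chromosome 8 comparison, offsets of chromosome 8 genes in knockout libraries were moved by their median. CPM used TMM-scaled library sizes. Alternatives were other scalings, filters, DESeq2 1.42.0, a replicate block and libraries left out. The procedure was tested on simulated data.

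Genes named by plan are the 10 members, Smarca1, the paralogues Pds5b, Stag3, Smc1b, Rec8 and Ctcfl, and any list genes that passed. Of the related genes 0 passed. For each called member the plan added the 3 tested neighbours on either side and the 3 most alike genes with at least 1 CPM per kb. Other related genes with an unadjusted edgeR p-value under 0.05, and single marker genes, were named outside this plan. Members and lists were chosen with earlier results of these data known.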

Additional observations from a re-analysis of the deposited data

How the results depend on the processing

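With every scaling, filter and tool tried, edgeR or DESeq2 called 2 members, Ctcf and Mau2. The exceptions were the replicate block (5 members), the fit without knockout replicate 1 (4 members, so 2 to 4 over the libraries left out) and the chromosome 8 offset (0 members). Related genes called at an adjusted p-value under 0.05 numbered 11 with the replicate block and 4 without knockout replicate 1 (0 to 4 over the libraries left out). The block added Stag2 (adjusted p = 0.0042 by edgeR), Nipbl (0.0493) and Pds5a (0.0348) and raised the calls over all genes from 1274 to 3471, whereas DESeq2 called 799 and leaving out a library gave 829 to 1932. Replicate numbers are not shown to pair the libraries, since with 2 pairs a correlation of same-numbered deviations of 0.293 does not establish it. The remainder of Ctcf against the chromosome 8 median ranged from -0.062 to 0.0092 with a library left out, and that of Mau2 from -0.26 to -0.07, with 0 of them passing. Of 104 alternative values for the 8 members off chromosome 8, 91 kept direction and call, 5 gained a call and 8 changed sign, as follows: Smc3 without WT replicate 2 (-0.026, up to 0.084 with another library left out), Rad21 under upper-quartile (0.020) and library-size scaling (0.0061) and without WT replicate 1 (0.037) or knockout replicate 2 (0.043), Nipbl without WT replicate 1 (0.019), and Wapl without WT replicate 1 (4e-06) or knockout replicate 2 (0.0071). Without knockout replicate 1 the values were -0.065 for Rad21, -0.32 for Nipbl and -0.11 for Wapl. WT ratios moved with the length used, to 0.765 without length correction and 1.09 with GENCODE lengths for Stag2/Stag1, to 1.53 and 1.49 for Nipbl/Mau2, to 0.755 without length correction for Ctcf/Rad21, and without it to 0.678 from 0.308 for the STAG sum over Rad21 and to 2.42 from 1.60 for Pds5a/Pds5b, alternatives added after seeing the data. The cause of these changes was not tested, apart from the fewer libraries in the fits that leave 1 out. In the fit without the block, the 95% intervals of members off chromosome 8 reach at least 0.18 to either side of the estimate on the log2 scale, so a difference smaller than that cannot be told from 0 in that fit.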
